A study of Mus musculus with 4 samples.

Results

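The genes described here are 9 listed genes of the contractile apparatus of smooth muscle and myoepithelial cells: Acta2, Tagln, Myh11, Des, Cnn1, Actg2, Myl9, Tpm2 and Cald1. They were chosen by name, with earlier results of these data known. Every array probe whose transcript accession maps to one of these names was used. A named probe was found for 8 of the 9 genes, by 13 probes in 31 spots, out of 17016 named genes on the array. All 8 were tested, among 21469 genes, of which 13992 have a name and the others are known by an accession or probe only. The expression of Myl9, which encodes a regulatory light chain of myosin, was not analysed here. The cells were prostate basal cells of adult FVB mice, sorted by flow cytometry and grown as spheres, a three-dimensional culture of epithelial progenitors. The DAPT group received 5 µM DAPT, an inhibitor of γ-secretase, the protease that frees the active part of Notch receptors. The vehicle group received DMSO, and in both groups the medium was changed every 24 h. Each group had 2 arrays, and each array set the RNA of 1 sphere sample in red against a commercial pooled mouse reference RNA in green. A log2 ratio above 0 means more signal from spheres than from the reference after normalization. The dyes were not swapped on any array, so a dye effect cannot be told from a level against the reference. The comparison addresses what differs between basal cell cultures with and without DAPT, and Notch activity itself is not described here.

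Smooth muscle cells shorten when myosin II, whose heavy chain in smooth muscle is encoded by Myh11, pulls on filaments of smooth muscle actin, encoded by Acta2 and Actg2. Calponin (Cnn1), caldesmon (Cald1) and tropomyosin (Tpm2) lie along these filaments and tune the pull, transgelin (Tagln) binds and bundles actin, and desmin (Des) forms the intermediate filaments of muscle. The same genes serve as markers of myoepithelial cells, the contractile basal cells of glands such as the breast. In the prostate the contractile layer is the smooth muscle of the stroma, and basal cells are not classed as myoepithelial. Activated fibroblasts and pericytes also carry Acta2 and Tagln. Many of these genes are driven by serum response factor (SRF) with myocardin or its relatives, which bind a DNA element called the CArG box.

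The Acta2 promoter is shown because the probes of this gene disagree, as described below. The sequence is the 250 bases before the transcript start from RefSeq (GRCm38.p6, chr19:34255374-34255623, minus strand), with CArG boxes that allow at most 1 G or C in their A/T core in capitals.
Acta2 promoter: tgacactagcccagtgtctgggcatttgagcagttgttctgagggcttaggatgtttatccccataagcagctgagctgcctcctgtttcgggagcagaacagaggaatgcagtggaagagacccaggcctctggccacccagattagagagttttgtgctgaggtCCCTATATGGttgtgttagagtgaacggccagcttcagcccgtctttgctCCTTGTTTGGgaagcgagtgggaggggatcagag
The first base of these boxes lies 84 and 34 bases before the start. Windows of 250 bases before and 50 after the start were on hand for 6 of the 9 genes, 7 windows in all. Such a box was found on either strand in 2 of the 6 genes, in 1 window each of Acta2 and Myl9. Of all 32851 windows 9.98% held one. GTGGGAA, the core of the site of RBPJ, the DNA-binding partner of Notch, was in 0 of the 7 windows on either strand and in 6.38% of all windows. These counts describe letters only.

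Red signal over local background had a median ratio of 2.84 and 2.40 on the DAPT arrays and of 1.95 and 1.83 on the vehicle arrays, and log ratios correlated at 0.944 between DAPT arrays, 0.922 between vehicle arrays and 0.839 to 0.879 between groups. All 13 probes were well above background in red on all 4 arrays, and no spot was saturated. The scanner software marked 49.6% and 50.9% of probe spots as non-uniform or outlying on the DAPT arrays, against 11.6% and 29.2% on the vehicle arrays. All 4 arrays sat on 1 slide, DAPT at positions 2 and 1 and vehicle at 4 and 3, so position and treatment cannot be told apart. The labels do not state separate cultures or animals for replicate arrays, so p-values cover the spread between these samples alone, and that spread may be technical. The keratins of basal cells, Krt5 and Krt14, gave more signal from spheres than from the reference in both groups. Krt5 had log2 ratios of 4.67 and 5.17 with DAPT and 4.67 and 4.63 with vehicle. Krt14 had 4.32 and 4.17 with DAPT and 4.52 and 3.88 with vehicle. Luminal markers were high too, with a median log2 ratio of 3.52 with DAPT and 3.88 with vehicle. The basal markers had medians of 2.83 and 2.62, so these ratios do not tell basal from luminal cells.

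With DAPT, 1 of the 8 contractile genes, Myh11, fell and 0 rose when the brightest probe stood for each gene (limma, Benjamini-Hochberg adjusted over 21469 genes; 3 lower and 0 higher at an unadjusted p under 0.05). Over all genes tested 6.80% passed, 3.92% lower and 2.88% higher. At an unadjusted p under 0.05 in limma, 2804 of the 21469 genes were lower and 2189 higher. Counted by probe, 3 of 13 fell and 0 rose, against 6.92% of all 27290 probes, 3.74% lower and 3.18% higher. The 3 were 1 of 3 probes of Acta2, 1 of 2 probes of Tagln and the single probe of Myh11. In bulk RNA, fewer cells of a type and less RNA per cell cannot be told apart. The groups did not overlap in log2 ratio for 8 of the 13 probes, 7 of them lower and 1 higher with DAPT, against 54.3% of all probes (30.6% lower and 23.8% higher). The median change of the 8 genes was -0.14, beside -0.06 over all genes tested, and it turned to 0.30 with median centring in place of loess and to 0.07 with the scanner software's processed signals. With those 2 settings the median of all genes moved up by 0.17 and 0.15. Set against the median of all genes, that of the 8 genes stood at -0.08, or at 0.19 with median centring, -0.02 with processed signals and -0.37 with scale normalization between arrays.

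**Figure D1:**
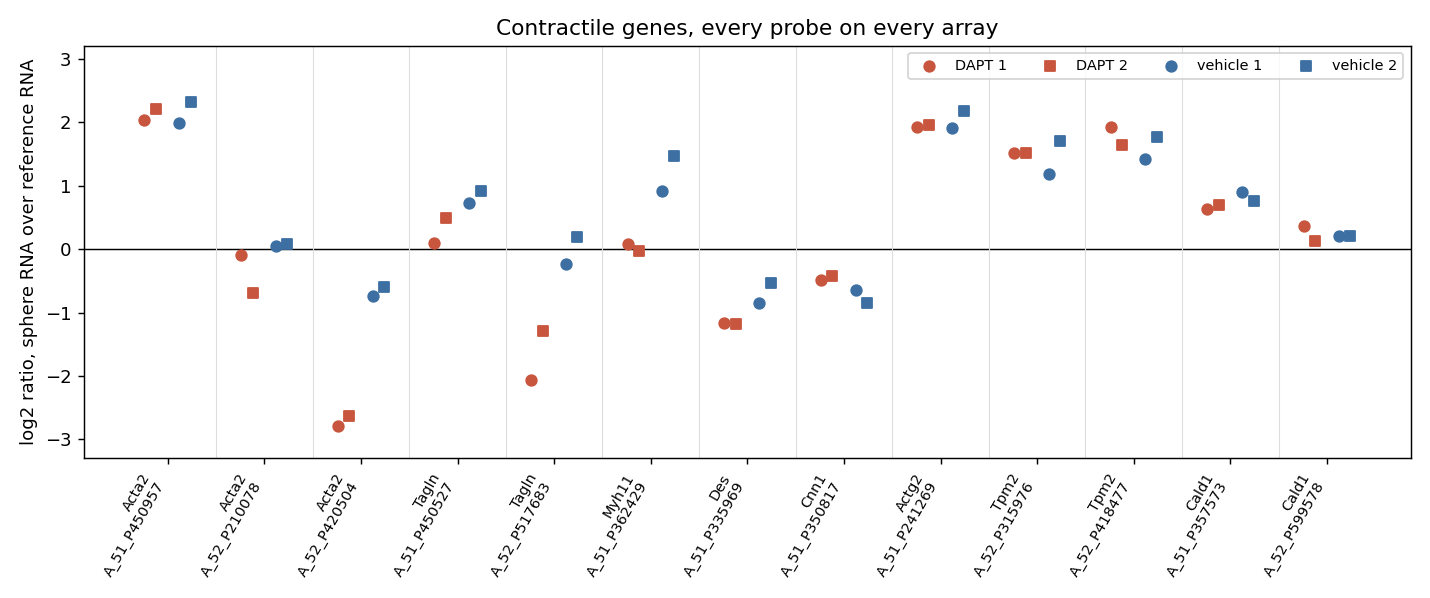
Log2 ratio of sphere RNA over reference RNA (vertical axis) for each of the 13 probes of the contractile genes (horizontal axis), with DAPT arrays in red, vehicle arrays in blue, replicate 1 as circles and replicate 2 as squares. Both DAPT arrays lie far below both vehicle arrays for Acta2 A_52_P420504 and Tagln A_52_P517683, while Acta2 A_51_P450957 and Actg2 overlap near 2.

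Of the 3 probes of the actin gene Acta2, 1 passed and the other two did not. The probe that stood for the gene, A_51_P450957, had log2 ratios of 2.03 and 2.20 with DAPT and 1.99 and 2.32 with vehicle. These groups overlapped, and the change of -0.04 ± 0.20 (SE, 95% interval -0.48 to 0.41) did not pass (limma adjusted p = 0.937 over genes). It stood at 0.42 with median centring and at 0.13 with processed signals. Its raw median red signal was 37729 and 30270 with DAPT and 28894 and 27400 with vehicle.

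Probe A_52_P420504 of Acta2, spotted 10 times on each array, read -2.79 and -2.62 with DAPT and -0.73 and -0.59 with vehicle. Both DAPT arrays lay below both vehicle arrays, and this reading fell by 2.04 ± 0.20 (SE, n = 2 each; 4.12-fold lower; limma adjusted p = 0.000186). The SD over the 10 spots was 0.23 and 0.20 on the DAPT arrays and 0.16 and 0.08 on the vehicle arrays, and no spot of one group reached the other. The lowest and highest spots were -3.14 and -2.39 on DAPT 1, -2.87 and -2.20 on DAPT 2, -0.99 and -0.50 on vehicle 1, and -0.71 and -0.46 on vehicle 2. The scanner software marked 18 of its 20 readings on the DAPT arrays and 8 of 20 on the vehicle arrays. The 2 unmarked DAPT spots, both on DAPT 1, averaged -2.87, against -0.71 over 9 unmarked spots on vehicle 1 and -0.67 over 3 on vehicle 2. DAPT 2 had no unmarked spot, and the part of the marks in the result was not tested.

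The change of this probe lay in the sphere channel. Its raw median red signal was 860 and 677 with DAPT and 1874 and 1368 with vehicle. On the log2 scale, with loess followed by Aquantile normalization, red signal averaged 9.88 with DAPT and 11.78 with vehicle, and green signal of the pooled reference averaged 12.59 with DAPT and 12.44 with vehicle. In the red channel alone the same change of -1.89 did not pass (limma adjusted p = 0.203), a setting in which 1 of 21469 genes was called.

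**Figure D2:**
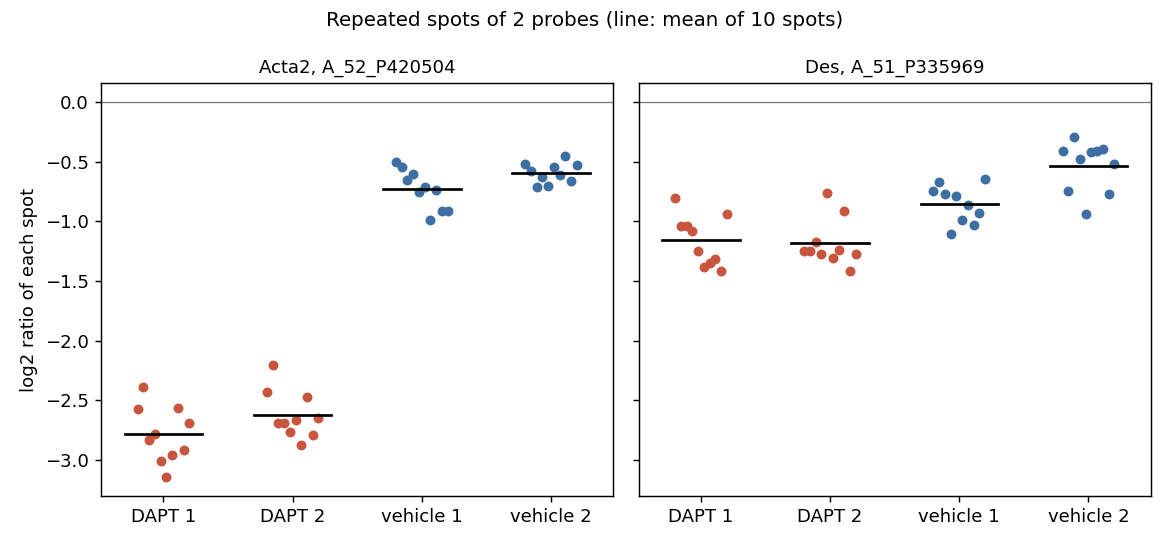
Log2 ratio (vertical axis) of each of 10 repeated spots on DAPT and vehicle arrays (horizontal axis), for Acta2 A_52_P420504 on the left and Des on the right, with the mean as a line. The Acta2 spots lie between -3.14 and -2.20 on the DAPT arrays and between -0.99 and -0.46 on the vehicle arrays, and the Des spots of the groups run into each other.

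The remaining Acta2 probe, A_52_P210078, lay close to background, with raw red signals of 132 and 91 with DAPT and 91 and 116 with vehicle over local backgrounds of 66 and 59 and of 56 and 63. Its ratios were -0.09 and -0.69 with DAPT and 0.05 and 0.08 with vehicle. The DAPT values were lower without overlap, but they lay farther apart than the gap between groups, and the change of -0.46 ± 0.23 (95% interval -0.95 to 0.04) did not pass (limma adjusted p = 0.245). With the mean of its probes in place of the brightest, Acta2 stood at -0.85 (adjusted p = 0.0202). Actin genes are near-identical in their coding sequence and the probe sequences were not used here, so which actin transcripts each probe also reads cannot be told.

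Tagln, the gene of transgelin, also had probes that differed. Probe A_52_P517683 had log2 ratios of -2.07 and -1.28 with DAPT and -0.24 and 0.18 with vehicle. Both DAPT arrays were lower, and this reading fell by 1.65 ± 0.26 (SE, 3.14-fold lower, limma adjusted p = 0.00401). The scanner software marked 2 of its 2 readings on the DAPT arrays and 1 of 2 on the vehicle arrays. The probe that stood for the gene, A_51_P450527, had 0.10 and 0.48 with DAPT and 0.72 and 0.92 with vehicle. The groups did not overlap, yet the change of -0.53 ± 0.21 (95% interval -0.99 to -0.07) did not pass (limma adjusted p = 0.152 over genes). On this probe log2 red signal averaged 14.19 with DAPT and 14.09 with vehicle. Green signal averaged 13.90 with DAPT and 13.27 with vehicle, so between group means the difference lay in the reference channel. That rested on vehicle 1, which was low in both channels, at 13.50 in red and 12.785 in green. Vehicle 2 had 14.67 in red and 13.75 in green, against 14.07 and 14.32 in red and 13.97 and 13.84 in green with DAPT. On A_52_P517683 the red signal was 8.14 with DAPT and 10.33 with vehicle, and the green 9.82 with DAPT and 10.36 with vehicle. The call of that probe was lost, at -1.27 (adjusted p = 0.41), when 13 debris spots of the DAPT 2 array were kept in the background fit.

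Myh11, the myosin heavy chain of smooth muscle, had log2 ratios of 0.08 and -0.03 with DAPT and 0.92 and 1.46 with vehicle. After loess, both DAPT arrays stood near 0 and both vehicle arrays above it, while raw red signal lay below raw green on all 4 arrays. Myh11 fell by 1.16 ± 0.22 (SE, 2.23-fold lower, limma adjusted p = 0.00944 over genes). Between group means, more of that difference lay in the reference channel than in the sphere channel. Log2 red signal averaged 9.43 with DAPT and 9.96 with vehicle, and green signal 9.40 with DAPT and 8.78 with vehicle. The red signal of the DAPT arrays, 9.51 and 9.34, lay inside the span of the vehicle arrays, 9.29 and 10.64. Green signal was 9.43 and 9.37 with DAPT and 8.37 and 9.18 with vehicle, so vehicle 1 was the lower vehicle array in both channels. On vehicle 2 the red signal lay above both DAPT arrays by more than its green signal lay below them. The call was lost with the processed signals (-1.04, adjusted p = 0.0803), with the debris spots kept (-1.16, adjusted p = 0.127) and in the red channel alone (-0.54, adjusted p = 0.646). For Myh11 the scanner software marked 1 of 2 readings on the DAPT arrays and 1 of 2 on the vehicle arrays.

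**Figure D3:**
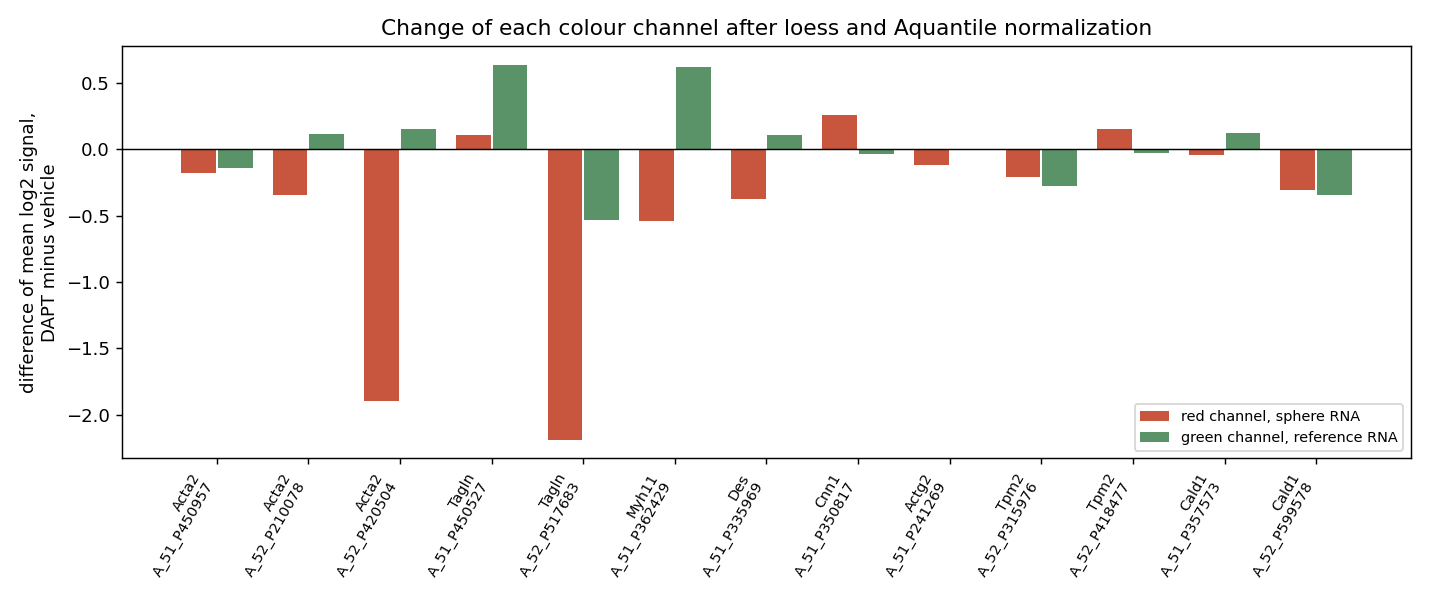
Difference of mean log2 signal, DAPT minus vehicle (vertical axis), in the red channel of sphere RNA and the green channel of reference RNA for each of the 13 probes (horizontal axis). The red bars of Acta2 A_52_P420504 and Tagln A_52_P517683 reach -1.89 and -2.19, and the green bars of Tagln A_51_P450527 and Myh11 stand at 0.64 and 0.62.

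The other actin and the desmin filament gene did not pass. Actg2, the enteric smooth muscle actin, had log2 ratios of 1.92 and 1.95 with DAPT and 1.91 and 2.18 with vehicle. These overlapped, with a change of -0.11 ± 0.20 (95% interval -0.54 to 0.32; limma adjusted p = 0.789) that turned to 0.34 with median centring and 0.04 with processed signals. Its green signal on vehicle 1 was 11.25, against 12.24 on vehicle 2, and the red signal of these arrays lay apart too, at 13.16 and 14.42.

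Des, read by a probe with 10 spots, had -1.16 and -1.19 with DAPT and -0.85 and -0.54 with vehicle. The DAPT arrays were the lower ones without overlap, and the change of -0.48 ± 0.20 (95% interval -0.92 to -0.04) passed unadjusted but not adjusted (limma adjusted p = 0.177). Single spots of the groups did overlap, with the highest DAPT spots at -0.81 and -0.76 and the lowest vehicle spots at -1.10 and -0.93.

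Cnn1, Tpm2 and Cald1, which encode proteins that lie along the actin filament, did not pass. Calponin 1 (Cnn1) was the member whose DAPT arrays both lay above the vehicle arrays, at -0.49 and -0.43 with DAPT and -0.65 and -0.85 with vehicle. Its change of 0.29 ± 0.20 (95% interval -0.14 to 0.71) did not pass (limma adjusted p = 0.408), but reached 0.76 (adjusted p = 0.0479) with median centring. Tropomyosin 2 (Tpm2) had 1.92 and 1.64 with DAPT and 1.43 and 1.76 with vehicle on probe A_52_P418477. The groups overlapped, at 0.18 ± 0.21 (adjusted p = 0.648), or -0.19 with scale normalization. Its probe A_52_P315976 gave 0.07 ± 0.22, or -0.26 with scale normalization.

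Caldesmon 1 (Cald1) had 0.64 and 0.70 with DAPT and 0.90 and 0.75 with vehicle on probe A_51_P357573. The DAPT arrays were just below the vehicle arrays, by -0.16 ± 0.19 (95% interval -0.58 to 0.26; limma adjusted p = 0.662), and 0.26 above them with median centring. Its other probe read 0.36 and 0.12 with DAPT and 0.20 and 0.21 with vehicle, a change of 0.04 ± 0.20. A missed threshold does not show that the groups were alike.

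**Figure D4:**
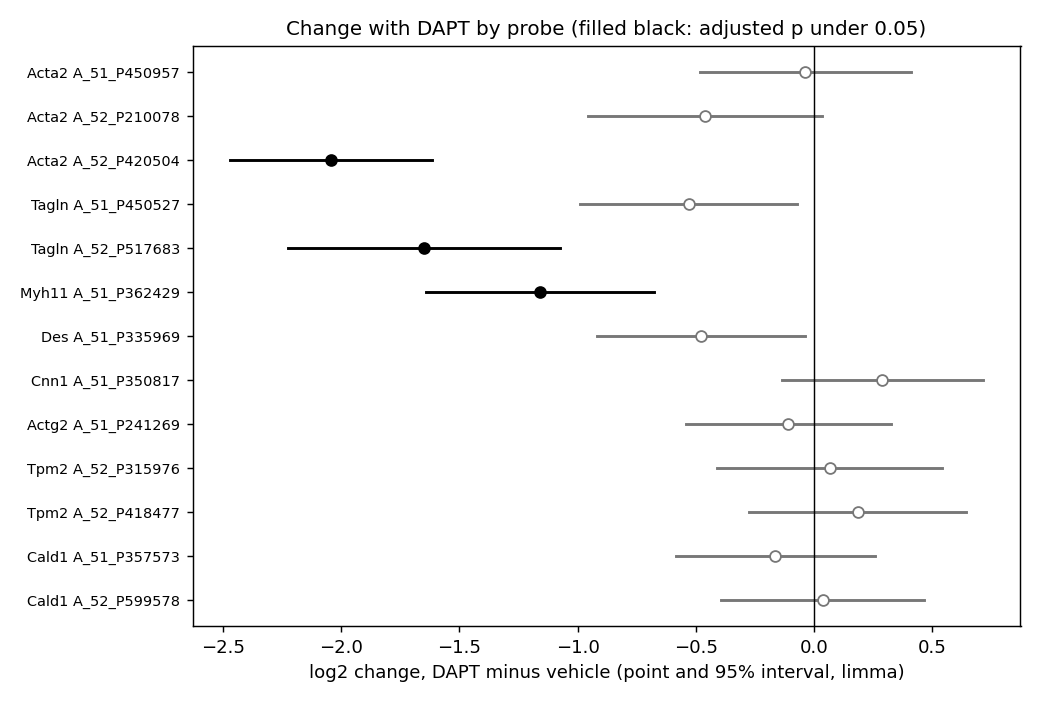
Log2 change, DAPT minus vehicle, with its 95% interval from limma (horizontal axis) for each probe (vertical axis), filled black where the adjusted p was under 0.05. The filled points are Acta2 A_52_P420504 at -2.04, Tagln A_52_P517683 at -1.65 and Myh11 at -1.16, and the other 10 are open.

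Each gene was set beside the named gene with the closest log2 ratios over the 4 arrays, by Euclidean distance among 13991 other named genes. The nearest to Acta2 was Ecm1 (distance 0.169), to Tagln Caap1 (0.148), to Myh11 Ctsb (0.299) and to Des Cyp2d26 (0.0686). The nearest to Cnn1 was Oprk1 (0.074), to Actg2 Ssu72 (0.143), to Tpm2 Fscn1 (0.161) and to Cald1 Rab3d (0.0357). None of these 8 neighbours is on the contractile list, which holds few of the genes searched. Within 2 times the smallest distance lay from 2 named genes, for Cald1, to 62, for Myh11. The nearest gene alone therefore does not show whether other contractile genes lay close too. Actg2, for example, lay near Acta2. Actg2 had ratios of 1.92 and 1.95 with DAPT and 1.91 and 2.18 with vehicle. Acta2 had 2.03 and 2.20 with DAPT and 1.99 and 2.32 with vehicle.

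Of 15 other smooth muscle genes tested, 2 rose and 0 fell with DAPT (5 lower at an unadjusted p under 0.05), with a median of -0.19, or 0.03 in the red channel alone. Itga8, an integrin of smooth muscle, rose by 0.93 ± 0.21 (limma adjusted p = 0.0229), with log2 ratios of 1.38 and 0.96 with DAPT and 0.14 and 0.35 with vehicle, but stood at -0.45 in the red channel alone. Mrvi1, which encodes a target of cGMP kinase, rose by 0.75 ± 0.20 (adjusted p = 0.0446) and stood at -0.0053 with marked spots left out. Itga8 and Mrvi1 each had 2 kept probes, of which 1 passed as higher and 0 as lower. Leaving out DAPT replicate 1 ended the call of Itga8 (0.72, adjusted p = 0.112), and leaving out vehicle replicate 1 (0.62, adjusted p = 0.122) or DAPT replicate 2 (0.65, adjusted p = 0.192) ended that of Mrvi1. With scale normalization the calls of both were lost (adjusted p = 0.053 and 0.0632). Mylk, the kinase that starts contraction by phosphorylating the light chain of myosin, was picked for that role and stood at -0.51 ± 0.21 (adjusted p = 0.159).

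Of 16 genes of SRF, myocardin, the small GTPases that act on actin and their targets, 6 fell and 1 rose, with a median of -0.22 that stayed below 0 under all 4 scaling and channel alternatives. Egr1, an immediate early gene, fell by 1.94 ± 0.19, Ankrd1 by 1.28 ± 0.26 and Ccn2, a target of SRF and YAP, by 1.04 ± 0.19 (limma adjusted p = 0.00017, 0.0126 and 0.00828). Rock2, a kinase that promotes actomyosin contraction, rose by 1.08 ± 0.21 (adjusted p = 0.0108), and lost its call with DAPT replicate 2 left out (0.86, adjusted p = 0.0569) and with processed signals (1.37, adjusted p = 0.0647). Ankrd1 did not pass with processed signals (-1.03, adjusted p = 0.0961), and Ccn2 passed neither with them (-0.75, adjusted p = 0.19) nor with median centring (-0.58, adjusted p = 0.097). The regulators themselves, picked for their role, did not pass: Srf stood at -0.11 ± 0.22 and Myocd at -0.11 ± 0.20, and Srf turned to 0.35 with median centring. With the processed signals, and likewise with median centring, 2 of the 16 fell. With the debris spots kept, the fibroblast markers described below held 6 falls and no other of these lists had a call (Ankrd1 stood at -0.60), and in the red channel alone none of the lists had one.

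Among 20 non-muscle relatives and cytoskeletal genes 1 fell and 0 rose (0 higher and 1 lower at an unadjusted p under 0.05), with a median of 0.03, or -0.35 with scale normalization and 0.41 with median centring, where 4 rose. The member that fell was Vim (vimentin), the intermediate filament protein of mesenchymal cells, by 1.91 ± 0.23 (limma adjusted p = 0.000501). The housekeeping actins Actb and Actg1, named for their kinship to Acta2, did not pass. Actb stood at 0.10, or at -0.35 with scale normalization, and Actg1 at -0.28, or at 0.18 with median centring. The log2 ratios of Actb were 2.05 and 2.20 with DAPT and 1.95 and 2.10 with vehicle. Acta2 probe A_51_P450957, which stood for its gene, had similar ratios of 2.03 and 2.20 with DAPT and 1.99 and 2.32 with vehicle. Whether that probe also reads Actb was not tested. Of 18 striated muscle genes 1 fell, the skeletal actin Acta1 by 1.08 ± 0.20 (adjusted p = 0.00801), a call lost with processed signals (-0.83, adjusted p = 0.135). The median of the striated list was -0.07, but above 0 under each of the 4 scaling and channel alternatives, from 0.07 to 0.23.

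Markers of fibroblasts and pericytes, which share some of these contractile genes, were counted too. Of 16 fibroblast markers 10 fell and 0 rose, with a median of -1.56 that stayed between -1.41 and -1.19 under the 4 scaling and channel alternatives. Mgp, Postn, Sparc and Fbln2, genes of matrix proteins, changed by -2.44, -2.39, -2.39 and -2.24, all past the threshold. The summed red signal of the list, after normalization, was 28391 and 20095 with DAPT and 90595 and 65471 with vehicle. Dpt, a further fibroblast marker, was too dim to be tested. Of 11 pericyte markers 4 fell and 0 rose, with a median of -0.30 that stayed below 0 under the same alternatives: Anpep by 1.61, Pdgfrb by 1.45, Cspg4 by 1.24 and Notch3 by 0.81. The summed red signal of that list was 2766 and 2974 with DAPT and 4464 and 5335 with vehicle. The call of Notch3 was lost with vehicle replicate 2 (-0.73, adjusted p = 0.0978) or DAPT replicate 1 (-0.61, adjusted p = 0.192) left out. The part of these cell types in the lower Acta2, Tagln and Myh11 readings was not tested.

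Markers of other lineages were counted likewise. Of 15 basal markers 1 fell, Krt15 by 1.08, with a list median of -0.04 that turned to 0.18 with processed signals, 0.19 with median centring and 0.07 in the red channel alone, and stood at -0.26 with scale normalization. With scale normalization 4 basal markers were lower, with median centring 0 were lower and 2 higher, and without DAPT replicate 1 there were 2 lower. Krt15 did not pass with processed signals (-0.48, adjusted p = 0.474) or median centring (-0.70, adjusted p = 0.0985). Of 9 luminal markers 2 fell, Tspan8 by 1.30 and Krt19 by 1.11 (4 without DAPT replicate 1), with a list median of -0.36 that turned to 0.12 with median centring and stood at -1.17 with scale normalization, where 7 were lower. Processed signals ended the calls of Tspan8 (-1.02, adjusted p = 0.0837) and Krt19 (-0.81, adjusted p = 0.164), and median centring that of Krt19 (-0.65, adjusted p = 0.0604). Of 6 endothelial markers 0 passed in limma (0 higher and 2 lower at an unadjusted p under 0.05), and the median of -0.31 turned to 0.02 with processed signals and 0.01 with median centring; the others of the 10 listed were not well above background. Of 9 leukocyte markers 0 passed (0 higher and 1 lower unadjusted), with a median of -0.14 that was above 0 in all 4 scaling and channel alternatives. The brightest endothelial and leukocyte markers, Esam and Cd3e, stood at -0.19 and 0.07, then Vwf and Fcer1g at -0.43 and -0.14.

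**Figure D5:**
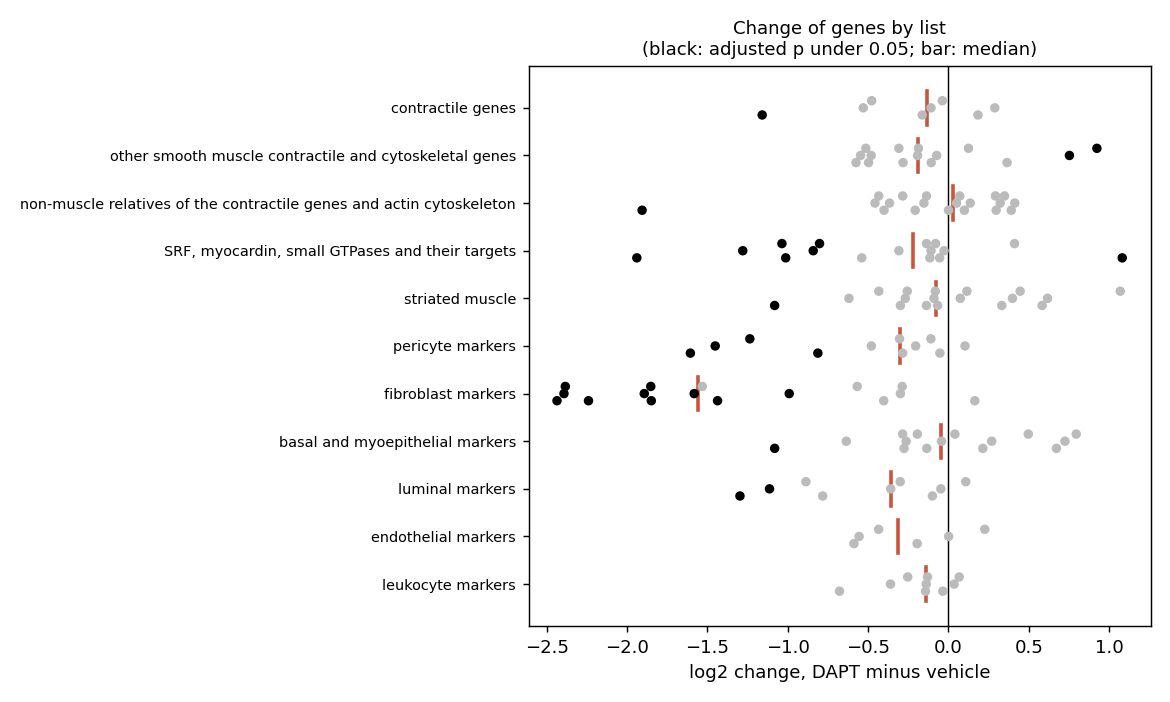
Log2 change, DAPT minus vehicle (horizontal axis), of each tested gene by list (vertical axis), black where the adjusted p was under 0.05, with the list median as a bar. The 8 contractile genes hold 1 black point, Myh11 at -1.16, and the fibroblast list 10 black points and a median of -1.56.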

How the data were processed

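Array signals of 4 two-colour Agilent arrays were compared. Per the file headers, the authors' scanner files hold median pixel intensity per spot and of its local background in red and green, not normalized, written by Agilent Feature Extraction 10.7.3.1, together with processed intensities and a log10 ratio of red over green. The authors' deposited value table holds log2 ratios of the same spots. It correlated at 0.9996 to 0.9998 with the ratios computed here, with column medians of -0.015 and -0.011 on the DAPT arrays and 0.00072 and -0.011 on the vehicle arrays, after a normalization not given in the sources used here. Sample titles gave groups and replicate numbers, and per the labels spheres were labelled in red. A positive ratio thus stands for more signal from spheres after normalization, with the same dye orientation on all arrays.

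Background was corrected with limma 3.58.1 (R 4.3.3) by normexp with an offset of 50 on median spot signals, leaving out 13 spots of DAPT 2 with a local background over 5 times the array median, followed by loess within arrays. Spots of a probe were averaged. Probes were named through RefSeq accessions (24375 of 41174). Probes called well above background in red on every array of 1 or both groups were kept, and a gene was represented by its brightest kept probe. Groups were compared with lmFit and eBayes (two-sided, Benjamini-Hochberg, threshold 0.05), once over genes and once over probes. The fit had 2 residual degrees of freedom per gene, to which eBayes added 10.2. With 2 arrays against 2, an exact permutation test cannot go below 0.333. The analysis was tested on simulated data that held no effect of dye, slide position or marked spots, so that test does not bear on them. The small number of arrays limits the precision. Deviations of same-numbered arrays from their group means correlated at 0.0845, so the replicate numbers were taken as names only and a fit with the number as a block is an alternative.

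The contractile genes, 10 other lists and the naming rule were chosen with earlier results of these data known. All member probes are named. In other lists up to 4 called genes with the largest change are named, or the 2 brightest where none was called. One gene of the luminal list is not reported here and was left out of its counts. Srf, Myocd, Mylk, Actb, Actg1, Krt5 and Krt14 were added for their role. Alternatives changed background correction, normalization, channel, spot and probe filters, probe rule and pairing, and left out each array.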

Additional observations from a re-analysis of the deposited data

How the results depend on the processing

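Over 15 alternatives, Acta2 probe A_52_P420504 kept its call in 12 of 13 that gave it a value, Tagln probe A_52_P517683 in 11 of 13 and Myh11 in 11 of 14. Leaving out an array gave them -2.12 to -1.96, -2.04 to -1.26 and -1.43 to -0.89. Genes lower numbered 0 with processed signals, 0 in the red channel alone, 0 with debris spots kept and 3 with the mean of a gene's probes (Acta2 and Tagln joining), and probes lower numbered 0 in the red channel alone and 1 with debris spots kept. With median centring 1 gene and 1 probe rose, Cnn1 in both. Leaving out an array gave 1 gene and 3 probes lower each time. With marked spots left out no contractile gene had a value on all 4 arrays. The median change of the list was 0.070 with processed signals, 0.30 with median centring and -0.41 with scale normalization, and -0.22 to -0.11 leaving out an array. Over all genes, 293 were higher and 340 lower with processed signals (46.3% higher, against 42.4% as reported), 1263 and 527 with median centring (70.6%), 384 and 1001 with scale normalization (27.7%), 0 and 1 in the red channel alone (limma; 1373 and 1265 at an unadjusted p under 0.05), 3 and 70 with debris spots kept (4.11%), and 174 and 73 of 3950 genes with marked spots left out (70.4%). Leaving out an array gave 416 to 812 higher and 603 to 1023 lower. With the replicate number as a block 894 were higher and 1169 lower, and the same 1 contractile gene and 3 probes were lower. The following changes turned sign, among them those of the called genes Itga8 and Mrvi1. With processed signals, Acta2 stood at 0.13, Actg2 at 0.043, Cald1 at 0.10, Cald1 probe A_52_P599578 at -0.16, Esam at 0.058, Vwf at 0.088 and Fcer1g at 0.20. With median centring, Acta2 stood at 0.42, Actg2 at 0.34, Cald1 at 0.26, Actg1 at 0.18, Srf at 0.35, Esam at 0.27 and Fcer1g at 0.28. With scale normalization, Tpm2 stood at -0.19, its probe A_52_P315976 at -0.26, Cald1 probe A_52_P599578 at -0.012, Actb at -0.35 and Fcer1g at 0.17. In the red channel alone, Tagln stood at 0.11, Tpm2 probe A_52_P315976 at -0.21, Cald1 probe A_52_P599578 at -0.31, Actb at -0.23, Srf at 0.070, Esam at 0.52, Fcer1g at 0.14 and Itga8 at -0.45. With debris spots kept, Tpm2 probe A_52_P315976 stood at -0.12 and Myocd at 0.16, and with marked spots left out Mylk stood at 0.13 and Mrvi1 at -0.0053. Leaving out an array in turn spanned 0 for Acta2 (-0.20 to 0.13), Actg2 (-0.24 to 0.024), Cald1 probe A_52_P599578 (-0.081 to 0.16), Tpm2 probe A_52_P315976 (-0.20 to 0.33), Srf (-0.38 to 0.17), Myocd (-0.25 to 0.018), Cd3e (-0.096 to 0.23) and Fcer1g (-0.30 to 0.020). The cause of these changes was not tested. Signal limits the dim probes, with red medians of 1.83 to 2.84 times the background.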
